A study of Mus musculus with 29 samples.

Results

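Small nucleolar RNAs (snoRNAs) encoded on mouse chromosome 7 between Ndn and Ube3a were followed on every array of a neural differentiation series. The members were the transcript cluster rows that carry a single symbol, that the mouse RefSeq annotation of GRCm38.p6 classes as small nucleolar RNA, and that lie between those genes. This gave 170 rows for 170 gene symbols, out of 65956 transcript clusters, the array's probe sets for 1 transcript region each, of which 30604 have 1 symbol, and RefSeq annotates 206 snoRNA genes in the interval. The members were chosen by their large stage and genotype differences in the log2 values of these same arrays, so those differences are described here without a test. The LY3201 comparisons were not used in the choice and were tested. They use the same untreated arrays as the genotype and stage differences, so they are not independent of the choice.

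The study followed mouse embryonic stem cells (mESC) through neural precursors (NPC) and midbrain precursors (mDPC) to a stage called mature midbrain neurons (MN), with 1 Clariom D microarray per sample and 29 arrays in 14 groups. Cells labelled BERKO, from a line in which Esr2, the gene of estrogen receptor beta (ERβ), was knocked out, were set against wild-type (WT) cells at each stage. LY3201, an ERβ-selective agonist, was given at 0.5 nM, for 4 days in NPC and mDPC, and the labels give no length of treatment for MN. Each group held 2 arrays, except that untreated BERKO-labelled MN held 3, and mESC were not treated. In BERKO-labelled mESC and in treated WT NPC both array titles carry the same number. Whether those arrays are separate cultures is not stated.

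In the labels' culture conditions, mESC grew without feeders with LIF, NPC with FGFb and laminin, mDPC with FGFb, FGF8b, Shh and ascorbic acid, and MN with ascorbic acid after those factors were withdrawn. Cells without LY3201 are called untreated here, and the treatment protocol names a DMSO vehicle. The number of clones or lines per genotype and the part of Esr2 that was removed are not given in the sources used here. Esr2 stood at 3.80 to 4.46 on the 15 arrays labelled BERKO and at 3.21 to 3.47 on the 14 WT arrays, on a log2 scale. This order goes against the label, but all values were below the background level given below on every array, and which part of the transcript the row reads is not known here, so the label was not checked by it. All genotype directions below are therefore those of the labels, and the cells are called BERKO-labelled.

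The 95th percentile of the negative control probes, used below as a background level, was 6.63 to 7.66 log2 across the arrays. Of 10 neuronal genes, 4 exceeded it on each BERKO-labelled MN array and 4 to 7 on each WT MN array, and none of 6 dopaminergic genes did on any array. The microglial genes averaged 3.18 to 3.39 with 0 of 4 above background on every array. MN is therefore used as the name of the stage.

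Imprinted genes are expressed mainly from the chromosome inherited from 1 parent. In neurons a long noncoding transcript from the paternal chromosome, Snhg14, starts near Snrpn, runs through tandem copies of box C/D snoRNAs and reaches Ube3a, where it is known to silence the paternal copy of that ubiquitin ligase gene. The snoRNAs are cut from its introns: copies of Snord116, whose loss is linked to Prader-Willi syndrome, lie nearer Snrpn, and copies of Snord115, which can pair with the mRNA of the serotonin receptor Htr2c, lie nearer Ube3a. Box C/D snoRNAs work with the methyltransferase fibrillarin, and most others in the genome guide ribose methylation of ribosomal RNA.

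To show where this host transcript begins, the promoter windows that RefSeq (GRCm38.p6) gives for its starts are printed here, 300 bases around the start, with CG dinucleotides, the sites where imprints are carried as DNA methylation, in capitals. The first is the start that Snhg14 shares with Snrpn at chr7:60450128-60450427, and the second is the start of Snurf and Snrpn at chr7:60005150-60005449, both on the minus strand.
Snhg14: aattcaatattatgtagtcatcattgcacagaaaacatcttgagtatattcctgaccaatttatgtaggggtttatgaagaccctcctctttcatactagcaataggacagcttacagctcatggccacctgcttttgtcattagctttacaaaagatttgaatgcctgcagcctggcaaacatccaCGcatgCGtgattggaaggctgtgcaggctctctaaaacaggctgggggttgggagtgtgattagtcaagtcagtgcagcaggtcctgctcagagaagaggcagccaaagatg
Snurf: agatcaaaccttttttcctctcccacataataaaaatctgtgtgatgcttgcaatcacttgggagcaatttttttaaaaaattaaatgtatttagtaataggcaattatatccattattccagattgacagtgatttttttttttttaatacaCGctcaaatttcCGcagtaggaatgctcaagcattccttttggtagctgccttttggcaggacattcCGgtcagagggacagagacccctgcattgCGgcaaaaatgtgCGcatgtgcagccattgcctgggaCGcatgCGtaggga
The Snhg14 window holds 2 CG and the Snurf window 7. Over 32851 promoter windows of the same length the median is 7 CG, 85.9% hold at least 2 and 52.1% at least 7. The CG count is the same on both strands. None of the 170 members has a promoter window in that table, and no sequence of a member itself was at hand.

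The members fell on the 2 sides of Ipw, a noncoding gene between the tandem copies, and were split there after their values had been seen. The 133 Ube3a-side rows have annotated lengths of 78 to 88 bases, 128 of them 79 bases, and their symbols carry no family name. The 36 Snrpn-side rows measure 92 to 94 bases, 34 of them 94. Snord64, a single-copy snoRNA of 46 annotated bases, lies nearer Ndn than both.

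Many rows could not be told apart by their values. The 170 rows held 78 distinct sets of values, 55 on the Ube3a side, 22 on the Snrpn side and 1 for Snord64. A group of 33 Ube3a-side rows, the first of them Gm24866, had the same value on every array, and another 23 rows, the first of them Gm26283, shared a second set of values. The 114 rows that share values are thus not separate measurements, and counts of rows below are counts of annotated copies. All 170 rows passed the filter on low values, which asked for a level above the array's median of all clusters on at least 2 arrays, and 1 of them, on the Ube3a side, passed through MN arrays alone.

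On the Ube3a side the median level was below or near background in mESC and NPC and at 7.02 to 8.85 in mDPC. It was far above background in MN, most of all in WT cells. In untreated BERKO-labelled cells the median over the 133 rows was 5.36 and 5.08 in mESC, 7.52 and 7.58 in NPC, 8.85 and 8.29 in mDPC, and 10.39, 10.41 and 10.37 in MN. In untreated WT cells it was 6.88 and 6.96 in mESC, 6.30 and 6.31 in NPC, 7.50 and 7.02 in mDPC, and 12.56 and 14.83 in MN. The BERKO-labelled arrays were thus lower than the WT arrays in mESC, higher in NPC and mDPC, and lower again in MN, with no overlap at any stage. In bulk samples such as these, fewer expressing cells and less RNA per cell cannot be told apart.

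On the Snrpn side the snoRNAs were far above background at every stage. In untreated BERKO-labelled cells their median over the 36 rows was 10.88 and 10.84 in mESC, 15.27 and 15.62 in NPC, 15.09 and 15.06 in mDPC, and 15.77, 15.63 and 16.09 in MN. In untreated WT cells it was 12.46 and 12.46 in mESC, 13.11 and 13.31 in NPC, 14.37 and 14.51 in mDPC, and 15.89 and 17.16 in MN. The genotypes did not overlap in mESC, where BERKO-labelled cells were lower, or in NPC and mDPC, where they were higher. In MN they did overlap, since the highest BERKO-labelled array stood above the lower WT array.

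**Figure D1:**
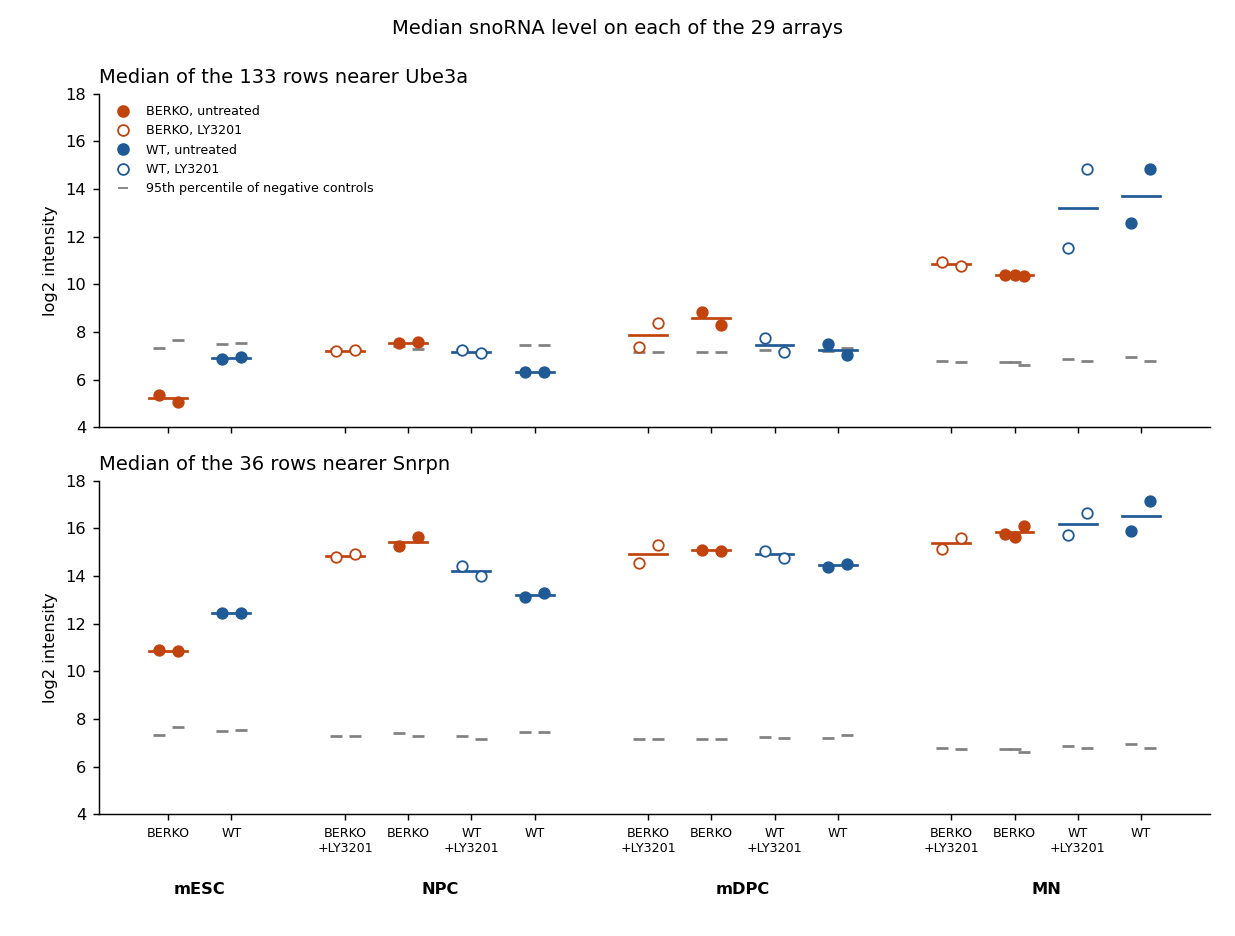
Median log2 intensity of the 133 rows nearer Ube3a (top) and the 36 rows nearer Snrpn (bottom), by stage, genotype and treatment. Each point is 1 array, bars are group means, and grey dashes mark the 95th percentile of that array's negative controls, 6.63 to 7.66. The rows nearer Ube3a stand out in MN, with BERKO-labelled arrays at 10.37 to 10.95 and WT arrays at 11.53 to 14.85, while the rows nearer Snrpn are above background in all groups.

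The number of rows above background followed the same course. On the Ube3a side, rows above the 95th percentile of the negative controls on both arrays of a group numbered 1 in BERKO-labelled mESC against 45 in WT mESC, and 74 in BERKO-labelled NPC against 41 in WT NPC. In mDPC they were 81 in BERKO-labelled and 47 in WT cells, and in MN 108 on all 3 BERKO-labelled arrays and 118 on both WT arrays. On the Snrpn side 31 of 36 rows were above background on every one of the 29 arrays. Changes among the dimmer Ube3a-side rows before MN were therefore measured close to background, where intensities understate ratios. The 33 rows with the values of Gm24866 were brighter, at 8.62 and 8.75 in WT mESC, above background. In BERKO-labelled mESC they had 6.57 and 6.79, below it.

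The rows that share values show the course without averaging. Gm24866, which stands for 33 rows, had 12.45, 12.29 and 11.69 in untreated BERKO-labelled MN, against 14.09 and 16.86 in WT MN. In mDPC it had 10.05 and 9.47 in BERKO-labelled cells, against 8.77 and 8.85 in WT cells. The WT arrays were below the BERKO-labelled arrays in mDPC and above them in MN. The step from mDPC to MN, as MN minus mDPC, was 2.39 ± 0.69 in BERKO-labelled and 6.67 ± 0.76 in WT cells (log2, SE of the fit over all arrays). This SE can understate the spread between the WT MN arrays.

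Gm22584, of 92 annotated bases on the Snrpn side, had the highest mean of all members and a set of values of its own. It had 11.73 and 11.50 in BERKO-labelled mESC, against 13.25 and 13.16 in WT mESC. In NPC the order was the opposite, with 15.94 and 16.09 in BERKO-labelled and 14.08 and 14.04 in WT cells. In MN the values overlapped, with 16.35, 16.18 and 16.68 in BERKO-labelled and 16.43 and 17.86 in WT cells.

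Snord64 did not rise with the tandem copies from mDPC to MN. In untreated cells its genotype difference had the sign of their medians in mESC and MN, and the opposite sign in NPC and mDPC. It stayed between 6.35 and 8.24 over all 29 arrays, at or near background. It had 6.84, 6.84 and 6.68 in untreated BERKO-labelled MN against 7.46 and 7.92 in WT MN, and 7.09 and 7.51 in BERKO-labelled mESC against 7.87 and 8.20 in WT mESC. The BERKO-labelled values were below the WT values at both stages. BERKO-labelled minus WT was -0.34 ± 0.25 in NPC and -0.68 ± 0.25 in mDPC (log2, SE), where the tandem copies had positive medians.

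The genotype differences, as BERKO-labelled minus WT in untreated cells, changed sign across stages in both groups of copies. In mESC the median was -1.63 on the Ube3a side and -1.46 on the Snrpn side, with 162 of the 170 members below 0. Over all 43502 clusters tested the median was 0.02. In NPC the medians were 1.25 and 2.18 on the Ube3a and Snrpn sides, a ratio of 2.37 and 4.52, with 166 members above 0. In mDPC they were 0.95 and 0.57, again with 166 members above 0. These contrasts were among those that chose the members, and 1.94%, 8.35% and 7.17% of all clusters tested were called between genotypes in mESC, NPC and mDPC, from which nothing is read for the members.

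Counting each distinct set of values once, a choice made after seeing the data, moved the Ube3a-side median in mESC to -0.79. Rows with values of their own were dimmer on the Ube3a side, with a median level of 5.86 over 39 rows against 8.61 over the 94 that share values. Their median genotype difference in mESC was -0.58, against -1.70 for the rows that share values. In NPC the own-value rows had 0.82 and the sharing rows 1.25.

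In untreated MN all 170 members were below 0, and the medians of the sides stood apart. Of 584 tested snoRNA rows outside the interval 443 were below 0 as well, among them all 9 on chromosome 12 between Meg3 and Mirg. The share of all clusters below 0 was not counted. The Ube3a-side median was -3.31, a ratio of 0.101, and 129 of 133 rows differed by more than 2-fold. The Snrpn-side median was -0.81, a ratio of 0.572, and 1 of 36 rows passed 2-fold. Over all clusters tested the median was -0.03, 2.84% passed 2-fold and 11.1% were called. Without WT replicate 2, the array with the highest levels, the medians were -1.95 and -0.086, and without WT replicate 1 they were -4.45 and -1.48.

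The largest MN differences were on the Ube3a side, in Gm22391 and Gm24137, which share values, and in Gm24100. Gm22391 had 10.16, 9.86 and 9.74 in BERKO-labelled MN against 12.18 and 14.81 in WT MN, a difference of -3.58 ± 0.63 (log2, SE). The SE is from 1 spread over all 14 groups and can understate that between the WT MN arrays. The smallest differences were in Gm22496 on the Ube3a side, Gm23047 and Gm23141. Gm22496, the member with the lowest mean, had 3.30, 3.72 and 4.09 in BERKO-labelled MN against 3.81 and 3.69 in WT MN, all below background. Gm23047, the dimmest Snrpn-side row, had 7.65, 7.25 and 8.10 in BERKO-labelled MN against 7.45 and 8.11 in WT MN, and these overlapped.

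**Figure D2:**
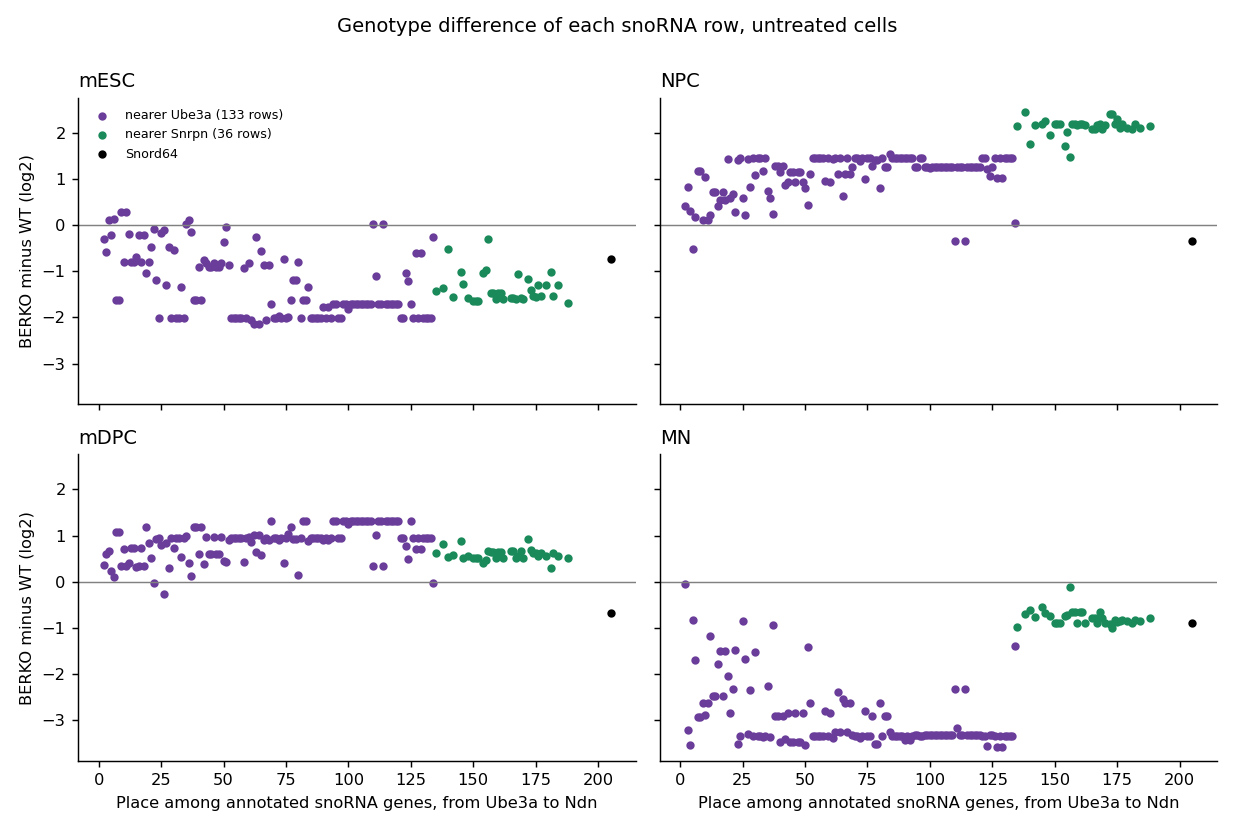
Difference between untreated BERKO-labelled and WT cells (log2, vertical axis) for each of the 170 rows, placed in the order of the 206 annotated snoRNA genes from Ube3a to Ndn (horizontal axis), with a panel per stage. Each point is 1 row, and rows with shared values form flat lines. The rows nearer Snrpn lie at a median of 2.18 in NPC and -0.81 in MN, and those nearer Ube3a at 1.25 and -3.31. The rows were divided at Ipw by position, so that boundary is not a result.

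In LY3201-treated cells the genotype medians were nearer 0 in the precursors and below 0 in MN. The members were chosen for genotype differences, so a smaller difference in treated cells is not read as an effect of LY3201. On the Ube3a side the arrays had 7.19 and 7.23 in treated BERKO-labelled NPC against 7.25 and 7.10 in treated WT NPC, which overlap. In treated MN they had 10.95 and 10.76 in BERKO-labelled against 11.53 and 14.85 in WT cells, which do not. The Ube3a-side and Snrpn-side medians were 0.22 and 0.59 in NPC, 0.14 and -0.03 in mDPC, and -2.34 and -0.78 in MN. In treated mDPC the sign depended on single arrays: the Ube3a-side median was -0.44 without BERKO-labelled replicate 2, and the Snrpn-side median was 0.38 without BERKO-labelled replicate 1. Without treated WT replicate 2 the MN medians were -0.97 and -0.24, and without replicate 1 they were -3.99 and -1.34. The Snrpn-side median in NPC was 0.32 without treated WT replicate 2. The shares of all clusters called between genotypes in treated NPC, mDPC and MN were 5.31%, 9.17% and 11.3%.

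From stage to stage, the 2 sides and the 2 genotypes moved by different amounts. From mESC to NPC the Ube3a-side median step was 2.34 in BERKO-labelled cells and -0.61 in WT cells, and the Snrpn-side step was 4.42 and 0.77. With each distinct set of values counted once, the Ube3a-side step in BERKO-labelled cells was 1.07. From NPC to mDPC the Ube3a-side steps were 0.49 in BERKO-labelled and 0.95 in WT cells, and the Snrpn-side steps -0.36 and 1.22. After quantile normalization the Snrpn-side step in BERKO-labelled cells was -0.11, and without NPC replicate 2 it was -0.18. The Ube3a-side step there was 0.21 without mDPC replicate 1 and 0.78 without mDPC replicate 2.

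From mDPC to MN the Ube3a-side median step was 1.81 in BERKO-labelled cells, a ratio of 3.52, and 6.44 in WT cells, a ratio of 86.7. All 133 rows were above 0 in both genotypes. The Snrpn-side steps were 0.71 in BERKO-labelled and 2.08 in WT cells, with all 36 rows above 0. Over all clusters tested the medians were -0.16 in BERKO-labelled and -0.11 in WT cells. Marker lists also differed between these stages in untreated cells. Proliferation genes had group medians of 9.43 in MN and 5.11 in mDPC in BERKO-labelled cells, and of 8.55 and 6.45 in WT cells. Oligodendrocyte genes had 8.53 in MN and 7.11 in mDPC in BERKO-labelled cells, and 9.11 and 6.36 in WT cells. Mesenchymal genes had 4.53 and 5.05 in BERKO-labelled cells and 7.83 and 6.12 in WT cells, and neuronal genes 6.63 and 6.403, and 7.97 and 6.94. The part of these markers in the step was not tested.

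Leaving out WT MN replicate 2 gave a Ube3a-side step from mDPC to MN of 5.24 and a Snrpn-side step of 1.37 in WT cells. The steps were among the contrasts that chose the members, and the shares of clusters called were 48.5%, 23.1% and 33.6% in BERKO-labelled and 48.9%, 17.8% and 26.7% in WT cells, in the order of the stages.

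Neuronal genes and the Ube3a-side snoRNAs were both higher on the WT than on the BERKO-labelled MN arrays. The mean of the 10 neuronal genes was 6.49, 6.63 and 6.68 in untreated BERKO-labelled MN and 6.44 and 6.56 in treated BERKO-labelled MN. In WT MN it was 6.93 and 8.03 with LY3201 and 7.13 and 8.82 without. In untreated BERKO-labelled cells it was 6.46 and 6.44 in mESC and 6.92 and 6.86 in NPC, so it does not measure neurons alone. Stmn2, which is in the list, stood at 15.92 to 16.05 in mESC and at 10.14 to 13.85 in MN. The WT replicates with the higher neuronal mean, with and without LY3201, also had the higher snoRNA medians, and all 5 BERKO-labelled arrays lay below all 4 WT arrays in the neuronal mean and in the Ube3a-side median. Among the 5 BERKO-labelled arrays, treated replicate 1 had the lowest neuronal mean, 6.44, and the highest Ube3a-side median, 10.95. Untreated replicate 3 had the highest neuronal mean, 6.68, and the lowest Ube3a-side median, 10.37. On the Snrpn side these arrays had the lowest and the highest median, 15.15 and 16.09. The part of neuronal content in the snoRNA difference was not tested.

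Markers of other cell types differed as well. Mesenchymal genes averaged 4.39 to 4.86 on the BERKO-labelled MN arrays, with 0 of 5 above background, against 7.72 to 8.50 on the WT MN arrays, with 2 to 4 above. In NPC they averaged 5.85 to 6.23 in BERKO-labelled cells, with 0 above, against 8.98 to 9.10 in WT cells, with 4 above. Astrocytic genes averaged 12.12 to 12.34 in BERKO-labelled MN and 11.69 to 11.94 in WT MN, with 7 or 8 of 8 above background. Proliferation genes separated the genotypes in untreated cells, at 12.13 to 12.27 in BERKO-labelled and 11.15 to 11.38 in WT NPC, 5.06 to 5.16 and 6.43 to 6.46 in mDPC, and 9.31 to 9.47 and 8.40 to 8.70 in MN. Of 5 such genes 0 were above background in BERKO-labelled and 2 in WT mDPC, and 4 and 3 in MN. Oligodendrocyte genes averaged 8.28 to 8.78 in untreated BERKO-labelled MN, with 4 or 5 of 7 above background, and 8.85 to 9.37 in untreated WT MN, with 5 or 6 above. The part of these markers in the snoRNA differences was not tested.

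**Figure D3:**
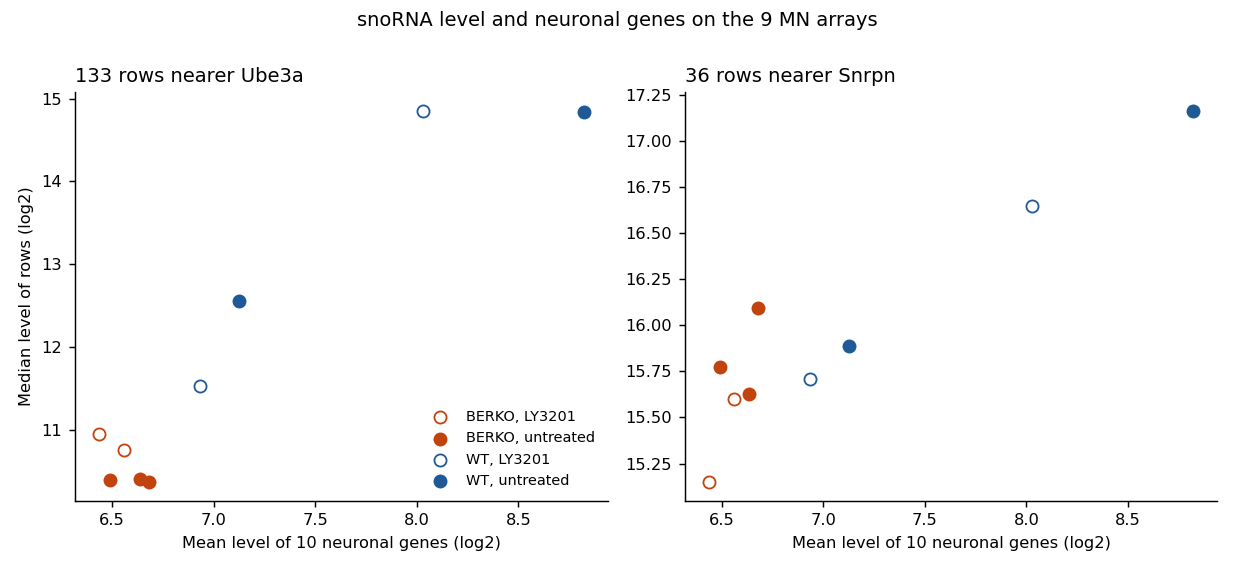
Mean log2 level of 10 neuronal genes (horizontal axis) against the median log2 level of the rows nearer Ube3a (left) and nearer Snrpn (right) on the 9 MN arrays. Each point is 1 array. The 5 BERKO-labelled arrays have neuronal means of 6.44 to 6.68 and the 4 WT arrays 6.93 to 8.82, and the 2 WT arrays with the highest neuronal means have the highest snoRNA medians in both panels.

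LY3201 changed no member past the threshold in any of 9 comparisons. limma with Benjamini-Hochberg adjustment over all 43502 clusters called 0 of 170 members for the treatment in BERKO-labelled and WT NPC, where it called 0% and 0.0023% of all clusters. It called 0 in BERKO-labelled and WT mDPC, with 0.00919% of clusters called in each, and 0 in BERKO-labelled and WT MN, with 0.0644% and 0.531% called. The tests of the difference of the LY3201 effect between genotypes also called 0 members, with 0.0046%, 0.0023% and 0.0805% of clusters called in NPC, mDPC and MN. Members with an unadjusted p under 0.05 numbered 0 and 33 in BERKO-labelled and WT NPC, 1 and 0 in mDPC, 1 and 2 in MN, and 35, 0 and 1 for the differences between genotypes in NPC, mDPC and MN. The share of all clusters at that unadjusted level was not counted, so counts at that level, here and below, have no share beside them. p-values measure only the spread between arrays that the design text calls biological replicates. In 2 groups, BERKO-labelled mESC and treated WT NPC, both titles carry the same number.

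The 33 members with an unadjusted p under 0.05 in WT NPC were all on the Snrpn side. The 36 rows there hold 22 distinct sets of values, read on the same arrays, so they are not 33 separate results. The 36 Snrpn-side rows had a median of 14.43 and 13.997 in treated WT NPC, against 13.11 and 13.31 in untreated WT NPC, and all 36 differences were above 0, with a median of 0.95. Gm26097, which had the lowest p, stood at 9.58 and 9.03 in treated and 8.01 and 8.26 in untreated WT NPC. Its difference was 1.17 ± 0.35 (log2, SE), and limma's adjusted p was 0.267. The second lowest p was that of Gm24264, with 14.96 and 14.43 in treated and 13.58 and 13.59 in untreated WT NPC and an adjusted p of 0.313 in the limma fit.

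In BERKO-labelled NPC none of the Snrpn-side rows had an unadjusted p under 0.05 in the limma fit. The Snrpn-side median was 14.80 and 14.90 in treated cells, against 15.27 and 15.62 in untreated cells, and all 36 differences were below 0, with a median of -0.57. Gm22131 had the lowest p there, with 11.67 and 11.76 in treated and 12.23 and 12.73 in untreated cells and an adjusted p of 0.774 in the limma fit. The treated and untreated medians did not overlap in either genotype. Titles of the treated WT NPC arrays share a number, so they may not be separate cultures.

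The difference of the LY3201 effect between genotypes in NPC, BERKO-labelled minus WT, was below 0 in all 36 Snrpn-side rows, with a median of -1.55. In Gm26097 it was -1.69 ± 0.50 (log2, SE), with a limma adjusted p of 0.204, and in Gm23953 -1.66 ± 0.50, with an adjusted p of 0.207. On the Ube3a side the median was -1.12, with no row at an unadjusted p under 0.05. The fit takes 1 spread per row from all 14 groups. Gm26283, which stands for 23 rows, had 12.56 and 14.83 in untreated WT MN, against 6.3 and 6.31 in untreated WT NPC. The MN spread thus enters its SE for LY3201 in NPC and mDPC, which was 0.71 (log2). The untreated NPC arrays also carry the NPC genotype difference, and they set part of the difference of the LY3201 effect. In a simulation of the WT NPC comparison with 200 changed clusters of each size among 43502, the test recovered 80% of log2 changes of 1 and 24% of those of 0.5. The changed clusters were drawn at random from all clusters tested, so these shares do not give the recovery for the members. In this comparison the SE was 0.76 for Gm24866 and 0.71 for Gm26283 on the Ube3a side (log2).

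On the Ube3a side the median LY3201 difference in NPC was -0.34 in BERKO-labelled and 0.71 in WT cells. In mDPC and MN no member passed the adjusted threshold either. The Snrpn-side median difference was -0.14 in BERKO-labelled and 0.50 in WT mDPC. The 2 rows with the lowest p in WT mDPC were Gm23141, with 10.95 and 10.29 in treated and 9.87 and 9.58 in untreated cells and an adjusted p of 0.493 in the limma fit, and Gm22851. In MN the Snrpn-side medians were -0.37 in BERKO-labelled and -0.36 in WT cells. On the Ube3a side they were 0.38 and -0.35 in MN, and -0.38 and 0.29 in mDPC. Each of these LY3201 differences uses untreated arrays that also enter the genotype differences by which the members were chosen. Their signs are therefore not independent of that choice.

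Gm26498 and Gm25088, on the Ube3a side, had the lowest p for LY3201 in WT MN. Gm26498 had 6.69 and 8.63 in treated WT MN against 8.02 and 9.15 in untreated WT MN, which overlap. Its difference was -0.92 ± 0.41 (log2, SE), with an adjusted p of 0.440 in the limma fit. Without untreated WT replicate 1, 2 members were called in WT MN and 2 for the difference between genotypes in MN, and without treated WT replicate 2, 1 was called in WT MN. Leaving out any other array of the compared groups gave 0 members called in all 9 comparisons.

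**Figure D4:**
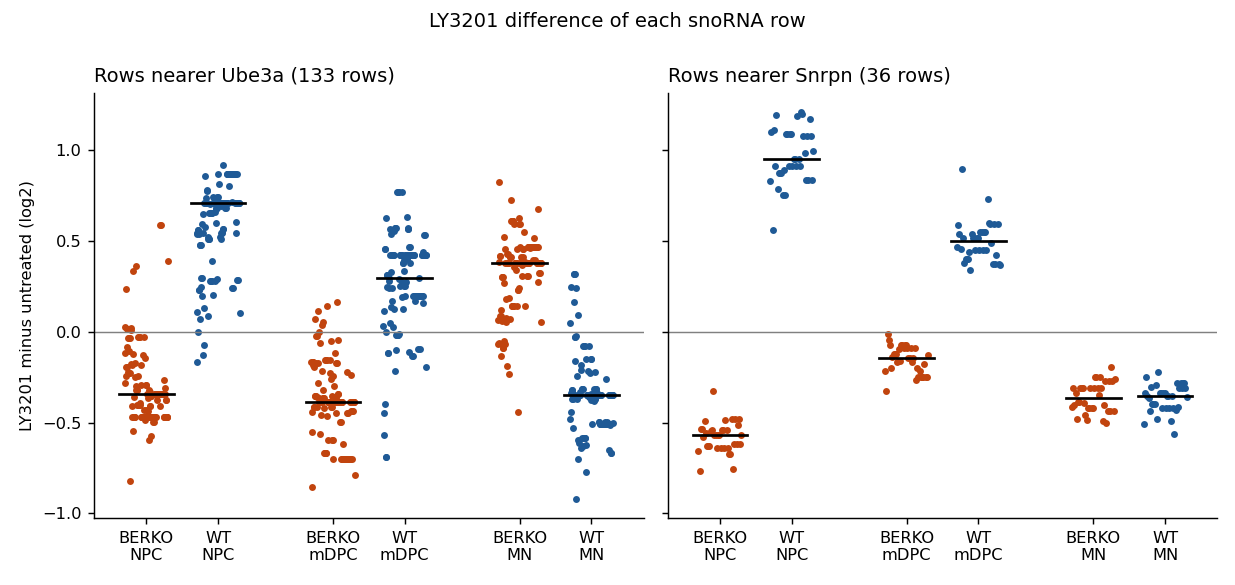
LY3201-treated minus untreated (log2, vertical axis) for each row nearer Ube3a (left) and nearer Snrpn (right), by stage and genotype. Each point is 1 row and bars are medians. In NPC the rows nearer Snrpn lie at a median of -0.57 in BERKO-labelled and 0.95 in WT cells, and none of the differences passed the adjusted threshold.

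The neighbouring genes on chromosome 7 were read for comparison. Of 19 listed neighbours 14 had a row of their own and 13 were tested, and Snrpn and Snurf share a row with several genes, which was not used. limma called 0 of the 13 between genotypes in untreated mESC, NPC or mDPC, where 1.94%, 8.35% and 7.17% of all clusters were called, and 2, 0 and 3 of them had an unadjusted p under 0.05. In untreated MN 5 were lower in BERKO-labelled cells and 0 higher, with 11.1% of clusters called, and limma called 0 in any of the 6 LY3201 comparisons, with 0 or 1 at an unadjusted p under 0.05 in each.

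Snhg14, the host transcript of the snoRNAs, had low values, between 4.91 and 6.46 on all 29 arrays and below background on each. In untreated MN it had 4.91, 4.97 and 4.98 in BERKO-labelled cells against 5.58 and 6.46 in WT cells, with no overlap. It fell by 1.06 on the log2 scale (SE 0.17) in BERKO-labelled MN, with a limma adjusted p of 0.000191. Both rest on 1 spread over all 14 groups and can understate that between the WT MN arrays. In NPC it had 5.78 and 5.56 in BERKO-labelled and 5.85 and 5.76 in WT cells, where the snoRNAs of the Snrpn side differed by a median of 2.18.

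Ndn, the imprinted gene that bounds the interval and encodes the growth suppressor necdin, had 10.43, 10.23 and 10.40 in untreated BERKO-labelled MN against 11.28 and 13.86 in WT MN. The groups did not overlap, and the difference was -2.22 ± 0.43 (log2, SE) with a limma adjusted p of 0.00163. Gabra5, a subunit of the GABA-A receptor, had 3.54, 3.57 and 3.50 in BERKO-labelled MN and 4.14 and 6.04 in WT MN, with an adjusted p of 0.00378 in the limma fit. Magel2, an imprinted regulator of protein ubiquitination, and Herc2, a ubiquitin ligase, also fell, by 0.40 and 0.48 on the log2 scale. Gabra5 and Magel2 were below background on all 29 arrays. The 2 MN arrays with the highest Ndn and Gabra5, both WT, also had the highest neuronal means, whose part in these differences was not tested.

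Ube3a itself was above background on all 29 arrays. It was higher in NPC than in mESC by 1.00 ± 0.11 in BERKO-labelled and 1.02 ± 0.11 in WT cells (log2, SE), with limma adjusted p of 2.85e-07 and 2.01e-07. From mDPC to MN it fell by 0.62 in BERKO-labelled and by 0.54 in WT cells on the log2 scale, with adjusted p of 8.07e-05 and 0.00108 in the limma fit. In that step the snoRNA medians of both sides were above 0 in both genotypes. Its untreated MN mean was 8.99 in BERKO-labelled and 8.97 in WT cells, and the arrays overlapped. Ndn was higher in NPC than in mESC by 4.73 ± 0.48 in BERKO-labelled and 4.74 ± 0.48 in WT cells (log2, SE), with limma adjusted p of 5.32e-08 and 5.17e-08.

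The genes of proteins that assemble with snoRNAs were lower in NPC than in mESC. All 9 tested genes for box C/D proteins and their assembly factors, of 11 listed, were lower in NPC than in mESC in both genotypes, in steps where 48.5% and 48.9% of all clusters were called, with median steps of -2.62 in BERKO-labelled and -2.94 in WT cells. Fbl, the fibrillarin methyltransferase, fell by 2.62 in BERKO-labelled and by 2.94 in WT cells on the log2 scale, with limma adjusted p of 4.59e-14 and 7.34e-15. All 6 genes for box H/ACA proteins, which bind the other class of snoRNA, fell as well, among them Dkc1, the pseudouridine synthase dyskerin, by 4.21 and 4.56. In that step the median of the Snrpn-side snoRNAs was 4.42 in BERKO-labelled and 0.77 in WT cells, and that of the Ube3a-side snoRNAs 2.34 and -0.61, with 124 of 133 rows below 0 in WT cells. Between genotypes in untreated cells, limma called 0 of the 9 box C/D genes in mESC, with 1 at an unadjusted p under 0.05, 1 higher in NPC, 1 lower in mDPC and 2 higher in MN. Of all clusters 1.94%, 8.35%, 7.17% and 11.1% were called at these stages.

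The mRNA that Snord115 can pair with, Htr2c, was listed at 3.11 to 3.57 on all arrays and did not pass the filter. Of 9 listed genes for reported Snord115 or Snord116 targets and RNA editing enzymes, 6 were tested, and limma called 1 between genotypes in untreated NPC, where 8.35% of all clusters were called. This was Adarb2, a brain relative of the editing enzymes, which averaged 5.36 in BERKO-labelled and 6.35 in WT NPC, below background, and exceeded background on 1 of 29 arrays. limma called 0 of the 6 between genotypes in untreated mESC, mDPC or MN, with 0, 3 and 2 at an unadjusted p under 0.05, where 1.94%, 7.17% and 11.1% of all clusters were called.

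Other snoRNAs on the same arrays are given for comparison. Over 584 tested snoRNA rows outside the interval, the median genotype difference in untreated cells was 0.12 in mESC, 0.03 in NPC, 0.03 in mDPC and -0.19 in MN, with 8, 12, 1 and 7 rows past 2-fold. Of these rows 170 were below 0 in mESC, 308 and 322 above 0 in NPC and mDPC, and 443 below 0 in MN. From mDPC to MN their medians were -0.47 in BERKO-labelled and -0.23 in WT cells, with 66 and 36 of the 584 past 2-fold. In that step in WT cells 8.33% of all clusters tested passed 2-fold, and 169 of the 170 members. From mESC to NPC the medians were -0.14 in BERKO-labelled and 0.00072 in WT cells, with 76 and 92 of the 584 past 2-fold. The 9 tested rows of the imprinted snoRNA region on chromosome 12, between Meg3 and Mirg, had medians of -0.85 in mESC, -0.37 in NPC, -0.07 in mDPC and -0.28 in MN. Counted by rows in the same way, the mESC medians of the members were -1.63 on the Ube3a side and -1.46 on the Snrpn side. With each distinct set of values counted once, the Ube3a-side median was -0.79. From mESC to NPC the 9 rows on chromosome 12 had medians of -1.10 in BERKO-labelled and -1.87 in WT cells, with 6 of the 9 past 2-fold in each. No test was run on these medians, since the members were chosen for such differences.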

How the data were processed

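Per the labels, 150 ng of total RNA per sample was hybridised to 1 mouse Clariom D microarray, and the deposited values are log2 intensities which the authors made by the SST-RMA method with Expression Console 1.4 from Affymetrix, a step that normalises between arrays and summarises each transcript cluster. The submitters' processing notes also name RMA and the Transcriptome Analysis Console, without versions, and the build behind the clusters is not given in the sources used here. Values were used as deposited. Of 72688 entries, 65956 were transcript clusters, and 5222 negative controls set the background level. Symbols came from the platform annotation, updated through RefSeq for GRCm38.p6.

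limma 3.58.1 in R 4.3.3 fitted 1 mean per group to all 29 arrays, with 15 residual degrees of freedom. A cluster was tested when it exceeded its array's median of all clusters on at least 2 arrays, which left 43502. Tests were 2-sided with Benjamini-Hochberg adjustment over these clusters and a threshold of 0.05, in 22 contrasts. The fit was tested on simulated data. The number of arrays limits the precision.

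The members and lists were chosen with earlier results of these data known. Named members were the highest, middle and lowest by mean, the 3 largest and 3 smallest MN genotype differences and the 2 lowest p per LY3201 contrast. Plots and counts used Python 3.11.15. Alternatives were other filters, quantile normalisation, a trended and robust prior, the compared groups alone, 1 cluster per symbol, averaging arrays whose titles share a number and leaving out each array. Medians per side and over distinct sets of values were added after seeing the data.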

Additional observations from a re-analysis of the deposited data

How the results depend on the processing

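The 0 members called for LY3201 stayed 0 in all 9 comparisons with quantile normalization, without a filter, with the filter set at each array's 75th percentile, with a prior both trended and robust, with the compared groups alone, with 1 cluster per symbol and with averaging of arrays whose titles share a number. With single arrays left out, the counts ran from 0 to 2 in WT MN and from 0 to 2 for the difference between genotypes in MN. No paired analysis was possible because the second numbers in the sample titles run on from group to group and are not replicate numbers. Of them 10 alone stands in titles of more than 1 group, treated BERKO-labelled and treated WT MN, which is 1 shared number, too few for a block. The cause of the changes below was not tested.

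Quantile normalization gave genotype medians of -1.45 on the Snrpn side in mESC, of 1.24, 1.15 and 1.81 over all members, the Ube3a side and the Snrpn side in NPC, of 0.46 on the Snrpn side in mDPC and of 0.052 there in treated mDPC, a reversal. The WT steps from mESC to NPC became -0.45, -0.57 and 1.07 over all members, the Ube3a side and the Snrpn side, and the Snrpn-side step from NPC to mDPC in BERKO-labelled cells -0.11. Counting distinct sets of values once gave -0.99, -0.79 and -1.38 over all members and the 2 sides in mESC, and 1.19 and 0.94 over all members and the Ube3a side in NPC. For the same 2 it gave WT steps of -0.34 and -0.52, 0.81 and 0.65, and 3.89 and 5.19 in the order of the stages, steps of 1.73 and 1.07 from mESC to NPC in BERKO-labelled cells, and 1.20 over all members from mDPC to MN in BERKO-labelled cells.

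With single arrays left out, genotype medians in untreated cells ran from -1.80 to -1.56 and from -1.59 to -1.35 on the Ube3a and Snrpn sides in mESC, from 1.24 to 1.34 over all members in NPC, from 0.47 to 0.72 on the Snrpn side in mDPC, and in MN from -4.35 to -1.84, from -4.45 to -1.95 and from -1.48 to -0.086 over all members and the 2 sides. In treated cells the Snrpn side ran from 0.32 to 0.84 in NPC and from -1.34 to -0.24 in MN. In treated mDPC the sign turned: over all members the median was -0.45 without BERKO-labelled replicate 2, -0.03 without WT replicate 2 and 0.76 at the highest, the Ube3a side ran from -0.44 (-0.03 without WT replicate 2) to 0.78, and the Snrpn side from -0.48 to 0.38, with 0.20 without WT replicate 1. WT steps ran from -0.66 to -0.60 on the Ube3a side from mESC to NPC, from 1.09 to 1.34 on the Snrpn side from NPC to mDPC, and from mDPC to MN from 4.31 to 7.02, 5.24 to 7.58 and 1.37 to 2.82. BERKO-labelled steps ran from 4.24 to 4.60 on the Snrpn side from mESC to NPC, from 0.21 to 0.78, 0.21 to 0.78 and -0.54 to -0.18 from NPC to mDPC, and from 1.43 to 2.09 and 1.53 to 2.19 over all members and the Ube3a side from mDPC to MN.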

Other observations

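A further 31 rows in the interval name several genes at once, among them Ipw and snoRNA copies, and were not members. They held 3 distinct sets of values. Their median was 11.39 in BERKO-labelled and 13.04 in WT mESC, 16.01 in BERKO-labelled and 13.85 in WT NPC, and 16.33 in BERKO-labelled and 17.22 in WT MN, untreated. The order of genotypes at these stages was that of the medians on both sides.

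Over the 14 group means, the rows outside the interval whose course was most like the Ube3a-side median were Vmn2r35, Tmem88b, Gm3683, Gm3616 and Vcl, with Pearson correlations of 0.966, 0.965, 0.964, 0.964 and 0.964. Gm3683 and Gm3616 had the same group means. For the Snrpn-side median they were Elavl3, which encodes an RNA-binding protein of neurons, Cpeb3, Mrpl48, Mycbp2 and Cdc42bpa, at 0.958, 0.956, 0.945, 0.945 and 0.945. Vmn2r35, a vomeronasal receptor gene, ran between group means of 3.12 and 7.65. The groups share stages and genotypes, so these values are a description without a test.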
